A study of Mus musculus with 23 samples.

Results

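*Il10*, *Il19*, *Il20* and *Il24* encode 4 cytokines of the IL-10 family and lie side by side on mouse chromosome 1, next to *Mapkapk2*, the gene of the protein kinase MK2. Together with *Il10ra* and *Il10rb*, which encode the chains of the IL-10 receptor, they make up the 6 genes described here, chosen by name and by their place beside *Mapkapk2* or in the IL-10 receptor. All 6 genes were measured on the array by 7 probes, with a second probe for *Il19*, among 26014 genes tested and 55681 probes. Each probe was assigned through the RefSeq accession that the scanner files give for it.

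RNA was taken from bone marrow-derived macrophages (BMDM) of male C57BL/6 mice aged 10 to 14 weeks, whose femoral marrow had been cultured for 9 days in the presence of M-CSF (10 ng/ml). The cells came from wild-type mice (wt BMDM), from mice lacking MK2 (MK2-/- BMDM) or from mice lacking MK2 and MK3 (MK2/3-/- BMDM). They received medium alone or, for 120 min, 100 ng/ml lipopolysaccharide (LPS), a cell wall component of Gram-negative bacteria that is sensed by Toll-like receptor 4. Each sample was hybridized with a single dye to its own Agilent array, giving 23 arrays in 6 groups of 4, except for MK2-/- BMDM in medium with 3. Both knockouts affect all tissues of the mice, and both carry the targeted *Mapkapk2* allele beside the cytokine genes, so that the altered locus and the missing kinase cannot be told apart in comparisons with wt BMDM. Cells lacking MK3 alone were not analysed here.

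IL-10 limits inflammation: macrophages release it after contact with bacterial products, and through its receptor, made of the ligand-binding chain IL-10Rα and the accessory chain IL-10Rβ, it activates JAK1, TYK2 and STAT3 and restrains the production of inflammatory cytokines. IL-19, IL-20 and IL-24 form a subfamily that signals through receptors containing IL-20Rβ, found mainly on epithelial cells, and IL-10Rβ is shared with the receptors for IL-22 and type III interferons. MK2 and MK3 are activated by the MAP kinase p38, and MK2 phosphorylates tristetraprolin, the product of *Zfp36*, which binds AU-rich elements in cytokine mRNAs and promotes their decay. The question put to the data was how far the LPS response of each of these genes differed with the absence of MK2 or of both kinases.

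*Mapkapk2* served as a check of the genotypes. Its log2 signal was 11.49 to 12.64 in wt BMDM in medium and 14.19 to 15.37 after LPS, compared with 8.73 to 9.07 and 11.63 to 12.30 in MK2-/- BMDM and 8.57 to 8.91 and 11.54 to 12.26 in MK2/3-/- BMDM. The signals of both knockouts lay below those of wt BMDM under either treatment, although the probe remained well above background on all 23 arrays. Where the probe lies relative to the targeted part of the gene is not given in the sources used here. The difference of *Mapkapk3* in MK2/3-/- BMDM from wt BMDM was -1.62 on the log2 scale in medium and -3.30 after LPS (adjusted p = 5.74e-05 and 1.14e-09 by limma), and its probe too remained well above background on all 23 arrays. All 7 measured macrophage markers of 8 listed, among them *Adgre1* and *Csf1r*, were well above background on every array. So were the T cell marker *Cd3e*, *Elane* and *S100a8* of neutrophils, *Itgax* and *Flt3* of dendritic cells and *Krt14* of keratinocytes, while *Cd4* was so on 20 arrays and *Cd8a* of T cells and *Mcpt1* of mast cells on none. The fibroblast collagen genes *Col1a1* and *Col1a2* were well above background on every array, and the summed level of the 3 fibroblast markers, as log2, ranged from 8.96 to 16.68, from 9.70 to 15.55 in LPS-treated MK2/3-/- BMDM and from 11.90 to 16.40 in LPS-treated wt BMDM. No marker of the 8 cell types passed the adjustment in a genotype comparison, and the part of other cells in the results below was not tested. Since the arrays measured bulk RNA, fewer cells with a transcript and less transcript per cell cannot be told apart. Between 47.5% and 69.1% of the probes were well above background on an array, with MK2/3-/- BMDM in medium replicate 2 at the upper end. After LPS this share was 56.2% to 60.8% in wt, 49.6% to 52.4% in MK2-/- and 48.4% to 55.4% in MK2/3-/- BMDM. All wt LPS arrays thus lay above all LPS arrays of the knockouts. The bearing of this on the genotype differences after LPS was not tested. The arrays of each genotype lay on a slide of their own, so that slide and genotype cannot be told apart, and the medium and LPS arrays of a slide lay in different rows, so that row and treatment cannot be told apart either.

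The stretches upstream of *Il19* and *Il20* are shown because of the unlike signals of these adjacent genes. *Il19* was induced by LPS on average at least 246-fold by one probe and at least 135-fold by the other. *Il20* was not well above background on any array. Both genes are transcribed from the minus strand, and the sequences, from RefSeq and the assembly GRCm38.p6, hold the 250 bases before the annotated start, 5′ to 3′. For the other members the reference table used here held no promoter. Capitals mark matches to a set of 7 motifs that were searched on both strands: a TATA box (TATAAA), the kappa B consensus, AP-1 (TGANTCA), CRE (TGACGTCA), C/EBP (TTNNGNAAT), the ISRE consensus and GAS (TTCNNNGAA).
Il19, chr1:130940116-130940365, minus strand: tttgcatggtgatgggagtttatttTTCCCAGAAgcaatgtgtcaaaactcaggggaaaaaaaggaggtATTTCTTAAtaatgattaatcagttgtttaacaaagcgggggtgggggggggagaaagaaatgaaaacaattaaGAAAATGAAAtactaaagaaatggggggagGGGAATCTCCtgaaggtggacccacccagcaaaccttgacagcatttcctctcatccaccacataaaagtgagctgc
Il20, chr1:130911297-130911546, minus strand: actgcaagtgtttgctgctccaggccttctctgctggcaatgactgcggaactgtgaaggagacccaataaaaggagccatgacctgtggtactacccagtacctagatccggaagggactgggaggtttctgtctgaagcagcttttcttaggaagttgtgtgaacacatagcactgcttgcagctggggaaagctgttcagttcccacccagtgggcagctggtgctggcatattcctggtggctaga
Upstream of *Il19*, 4 of the 7 motifs were matched: GAS at 225 to 217 bases before the start, C/EBP at 181 to 173, ISRE at 107 to 98 and kappa B at 77 to 68, none of which overlap. Among 32851 promoter stretches of the same length, 7.02% held a GAS, 10.2% a C/EBP, 2.98% an ISRE and 16.8% a kappa B match. None of the 7 motifs was matched upstream of *Il20*, and the TATA box, AP-1 and CRE motifs, held by 12.4%, 6.75% and 1.55% of the stretches, were not matched upstream of *Il19* either. The G and C content was 42% upstream of *Il19* and 52.8% upstream of *Il20*. A match describes the letters and is not a binding site.

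*Il10* rose after LPS in all genotypes, 57.5-fold on average in wt BMDM, and after LPS its signal in MK2/3-/- BMDM lay below that in wt BMDM. In wt BMDM, its quantile normalized log2 signal was 5.28, 6.10, 6.30 and 5.61 in medium and 11.73, 12.10, 11.51 and 11.34 after LPS. The 4 wt arrays after LPS lay close together, and the probe, printed as 10 spots on each array, was well above background on every array. In MK2-/- BMDM the signal was 5.57, 6.19 and 6.26 in medium and 8.52, 10.86, 10.07 and 11.10 after LPS. Here replicate 1 after LPS was the lowest and lay apart from the other 3, and all LPS arrays still exceeded all medium arrays. In MK2/3-/- BMDM the signal was 5.54, 6.45, 6.23 and 6.36 in medium and 7.35, 9.22, 8.16 and 9.07 after LPS. The lowest of these LPS arrays was again replicate 1, and it too lay above all medium arrays. The mean log2 signal rose by 5.85 ± 0.47 (SE) in wt BMDM, by 4.13 ± 0.51 in MK2-/- BMDM and by 2.31 ± 0.47 in MK2/3-/- BMDM, which is 57.5-fold, 17.5-fold and 4.95-fold (adjusted p = 2.31e-08, 6.08e-06 and 0.000947 by limma over all genes). The arrays do not overlap in any of these comparisons, and the exact two-sided permutation test gave p = 0.0286 for each, the smallest value that 4 arrays against 4 or 3 can give. This test takes the arrays as unpaired, although medium and LPS arrays share cultures.

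**Figure D1:**
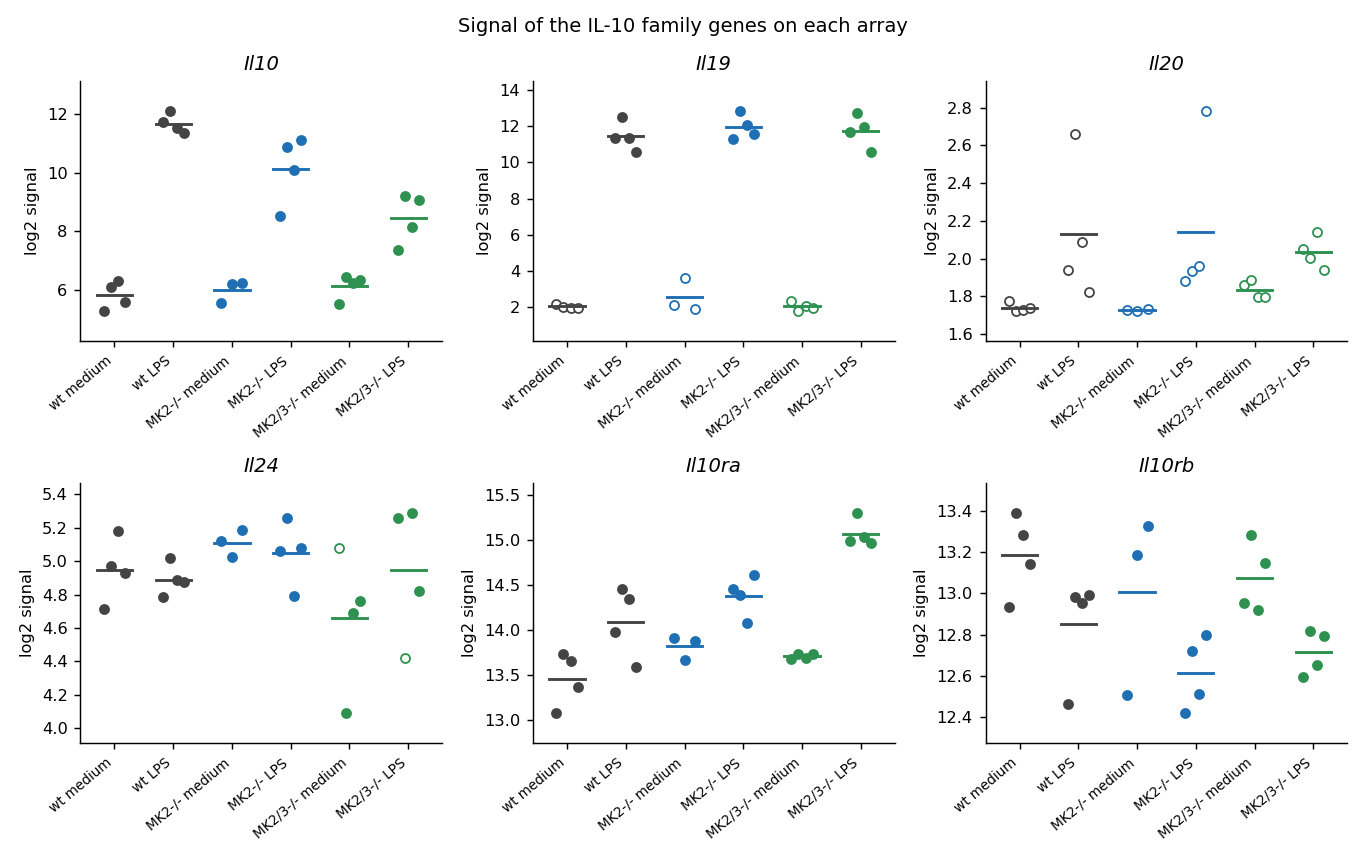
Quantile normalized log2 signal (y axis) of the 6 members on each array, by genotype and treatment (x axis); each point is 1 array, the horizontal line the group mean, and open points were not well above background. After LPS the *Il10* signals were 11.34 to 12.10 in wt, 8.52 to 11.10 in MK2-/- and 7.35 to 9.22 in MK2/3-/- BMDM, whereas the *Il19* signals of the genotypes overlapped.

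In medium the *Il10* signals of the 3 genotypes overlapped, with means of 5.82 ± 0.46 in wt BMDM, 6.01 ± 0.38 in MK2-/- BMDM and 6.14 ± 0.41 in MK2/3-/- BMDM (SD), and no difference passed the adjustment (adjusted p = 1 each by limma). After LPS the means were 11.67 ± 0.33, 10.14 ± 1.16 and 8.45 ± 0.87. All 4 MK2/3-/- arrays lay below all wt arrays, with a mean difference of -3.22 ± 0.47 (SE), or 9.29-fold lower (adjusted p = 0.00158 by limma, exact permutation p = 0.0286). With only these 2 groups in the fit, the same difference had an adjusted p of 0.114. Only 6 of the 26014 genes had a more negative difference in this comparison, in which 1.64% of all genes passed the adjustment and the arrays of 5.8% did not overlap. The 4 MK2-/- arrays likewise lay below all wt arrays, by 1.53 on average or 2.88-fold (95% interval of the difference -2.51 to -0.55, exact permutation p = 0.0286), but this difference did not pass the adjustment over all genes (p = 0.00415 unadjusted and 0.452 adjusted, by limma). In this comparison 0.0308% of all genes passed, and the arrays did not overlap for 3.72%. Between the knockouts the arrays overlapped, and the difference of -1.69 for MK2/3-/- against MK2-/- BMDM did not pass the adjustment either (95% interval -2.67 to -0.71, adjusted p = 0.228 by limma, exact permutation p = 0.0857). Between the knockouts 0.161% of all genes passed and 5.13% had arrays without overlap. Without MK2-/- LPS replicate 1, the array with the lowest *Il10* signal of its group, it became -2.23 (adjusted p = 0.0421 by limma) and the difference of MK2-/- from wt BMDM was -0.99 (adjusted p = 0.571).

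Differences in the LPS response itself, tested as an interaction, were rarely called in any gene: 0.00384% of all genes passed for MK2-/- against wt BMDM, 0.0115% for MK2/3-/- against wt BMDM and 0% for the pair of knockouts. For *Il10* the response of MK2/3-/- BMDM was lower than that of wt BMDM by 3.54 ± 0.66 on the log2 scale (SE), the second lowest value of 26014 genes, at an adjusted p of 0.14 by limma. The LPS arrays came from the same cultures as the medium arrays, and with the culture as a block the same difference passed the adjustment (adjusted p = 0.0224). The interaction was -1.71 for MK2-/- against wt BMDM and -1.82 for MK2/3-/- against MK2-/- BMDM (adjusted p = 1 for both by limma).

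Taken culture by culture, LPS minus medium, the log2 response of *Il10* was 6.45, 6.00, 5.21 and 5.73 in the 4 wt cultures. It was 2.95, 4.67 and 4.84 in the 3 MK2-/- cultures with both arrays and 1.82, 2.77, 1.93 and 2.72 in the 4 MK2/3-/- cultures. No culture of one genotype overlapped with those of another: the wt responses were the highest, those of MK2/3-/- BMDM the lowest, and those of MK2-/- BMDM lay between them. The exact two-sided permutation test gave p = 0.0286 for each pair of genotypes, the smallest possible. Over all genes, 5.95% had no overlap of the cultures for MK2-/- against wt BMDM, 4.33% for MK2/3-/- against wt BMDM and 4.21% for the pair of knockouts. For the 6 members, 18 such comparisons were computed, and 5 of them did not overlap, 3 for *Il10* and 2 for *Il10ra*. For *Il19* and *Il20* the medium signals lay at background, so that their responses within cultures are not read. The exact p-values are not adjusted for the number of comparisons.

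**Figure D2:**
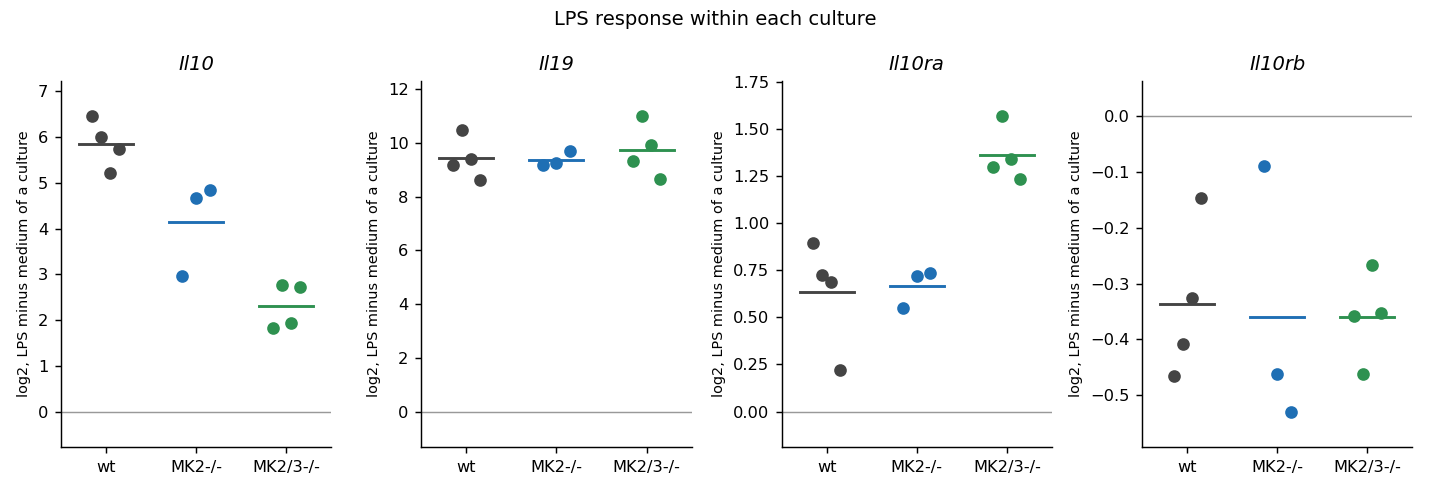
LPS response of 4 members within each culture, as log2 signal after LPS minus log2 signal in medium (y axis, with its own range in each panel), by genotype (x axis); each point is 1 culture (4 wt, 3 MK2-/- and 4 MK2/3-/-) and the line the mean. The *Il10* responses separate the genotypes in the order wt, MK2-/-, MK2/3-/-, with means of 5.85, 4.15 and 2.31, and the *Il10ra* responses of MK2/3-/- BMDM lie above all others. The *Il19* responses are taken against medium signals at background.

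*Il19*, the neighbour of *Il10*, rose from background after LPS in all genotypes, and no difference between the genotypes passed the adjustment. None of the 11 arrays of cells in medium showed a signal well above background. After LPS the log2 signal was 11.33, 12.50, 11.36 and 10.59 in wt BMDM, 11.30, 12.85, 12.08 and 11.58 in MK2-/- BMDM and 11.69, 12.74, 11.95 and 10.59 in MK2/3-/- BMDM. The highest array of each genotype was replicate 2, and the ranges of the genotypes overlapped. As the medium signals set only a bound, the mean induction was at least 246-fold in wt, 265-fold in MK2-/- and 253-fold in MK2/3-/- BMDM. By the second probe it was at least 135-fold, 137-fold and 135-fold. For the first probe the adjusted p was 1.54e-11, 7.68e-11 and 1.24e-11 by limma. After LPS the mean log2 signals were 11.44 ± 0.79 in wt BMDM, 11.95 ± 0.68 in MK2-/- BMDM and 11.74 ± 0.89 in MK2/3-/- BMDM (SD). MK2-/- BMDM differed from wt BMDM by 0.51 (95% interval -0.44 to 1.46, adjusted p = 0.823 by limma) and MK2/3-/- BMDM by 0.30 (95% interval -0.65 to 1.25, adjusted p = 0.848), so that differences within these intervals are not excluded. The second probe gave 0.43 and 0.26.

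*Il20* and *Il24*, which lie on the other side of *Il19*, showed no response that passed the adjustment. *Il20*, whose product acts mainly on skin and other epithelia, reached the level called well above background on none of the 23 arrays, with log2 signals between 1.72 and 2.78. For *Il24*, which encodes a cytokine of the same subfamily, the log2 signal was 4.71 to 5.18 in wt BMDM in medium and 4.78 to 5.02 after LPS, 5.02 to 5.19 and 4.79 to 5.26 in MK2-/- BMDM, and 4.09 to 5.08 and 4.42 to 5.29 in MK2/3-/- BMDM. These values were well above background on 21 of 23 arrays but close to the lowest such signal of an array, which ranged from 2.55 to 4.78. The LPS differences of *Il24* were -0.06, -0.06 and 0.29 (adjusted p = 0.924, 0.914 and 0.325 by limma), with 95% intervals of -0.47 to 0.35, -0.51 to 0.39 and -0.12 to 0.71.

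*Il10ra*, encoding the chain that binds IL-10, rose in all genotypes, and its signal after LPS was 1.97-fold higher in MK2/3-/- than in wt BMDM. Its log2 signal was 13.08, 13.73, 13.65 and 13.37 in wt BMDM in medium and 13.97, 14.46, 14.34 and 13.59 after LPS. In MK2-/- BMDM it was 13.91, 13.67 and 13.87 in medium and 14.46, 14.39, 14.08 and 14.61 after LPS. In MK2/3-/- BMDM it was 13.68, 13.73, 13.68 and 13.73 in medium and 14.98, 15.30, 15.03 and 14.97 after LPS. The 4 MK2/3-/- arrays after LPS were the highest of all 23, and the wt arrays of the treatments overlapped. The rise was 0.63 ± 0.18 in wt (SE, adjusted p = 0.0165 by limma, exact permutation p = 0.0857), 0.57 ± 0.19 in MK2-/- (adjusted p = 0.0452, exact permutation p = 0.0571) and 1.36 ± 0.18, or 2.57-fold, in MK2/3-/- BMDM (adjusted p = 8.62e-06, exact permutation p = 0.0286). The call in wt BMDM was lost without wt LPS replicate 2 or 3 or without wt medium replicate 1 (adjusted p = 0.0742, 0.0608 and 0.0672), and that in MK2-/- BMDM, which lies near the threshold, in 14 of the 23 fits that left out an array (highest adjusted p = 0.163). In MK2/3-/- BMDM it held in all 23. Fits of only the groups compared lost the calls in wt BMDM (adjusted p = 0.135) and MK2-/- BMDM (0.0605).

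After LPS, *Il10ra* was 0.98 ± 0.18 higher (SE) in MK2/3-/- than in wt BMDM, or 1.97-fold (adjusted p = 0.00821 by limma, exact permutation p = 0.0286). The arrays did not overlap, as for 5.8% of all genes, and with only these 2 groups in the fit the adjusted p was 0.205. For MK2-/- against wt BMDM the value was 0.29 (95% interval -0.08 to 0.66, adjusted p = 0.721 by limma). MK2/3-/- BMDM exceeded MK2-/- BMDM by 0.69, but this difference did not pass the adjustment (adjusted p = 0.168 by limma). Here too the arrays did not overlap (exact permutation p = 0.0286), as for 5.13% of all genes. Within cultures the log2 response was 0.90, 0.73, 0.69 and 0.22 in wt, 0.55, 0.72 and 0.73 in MK2-/- and 1.30, 1.57, 1.34 and 1.24 in MK2/3-/- BMDM. The responses of MK2/3-/- BMDM exceeded all others (exact permutation p = 0.0286 against either genotype), while those of MK2-/- and wt BMDM overlapped (exact permutation p = 0.886). As interactions over all genes these differences, 0.73 and 0.80, did not pass the adjustment (adjusted p = 0.796 and 1 by limma).

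*Il10rb*, encoding the chain shared with other receptors of the family, was well above background in all groups and showed slightly lower means after LPS that did not pass the adjustment. The log2 signal was 12.93 to 13.39 in wt BMDM in medium and 12.47 to 12.99 after LPS, 12.51 to 13.33 and 12.42 to 12.80 in MK2-/- BMDM, and 12.92 to 13.28 and 12.60 to 12.82 in MK2/3-/- BMDM. The differences were -0.34, -0.39 and -0.36 (adjusted p = 0.219, 0.164 and 0.143 by limma). The one in MK2-/- BMDM passed without MK2-/- medium replicate 1, the lowest array of its group (-0.64, adjusted p = 0.0173). Within cultures the log2 response was negative throughout, at -0.47, -0.41, -0.33 and -0.15 in wt BMDM. It was -0.09, -0.46 and -0.53 in MK2-/- and -0.36, -0.46, -0.27 and -0.35 in MK2/3-/- BMDM. Between the genotypes after LPS, the differences were -0.24 for MK2-/- and -0.13 for MK2/3-/- against wt BMDM (adjusted p = 0.766 and 0.811).

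**Figure D3:**
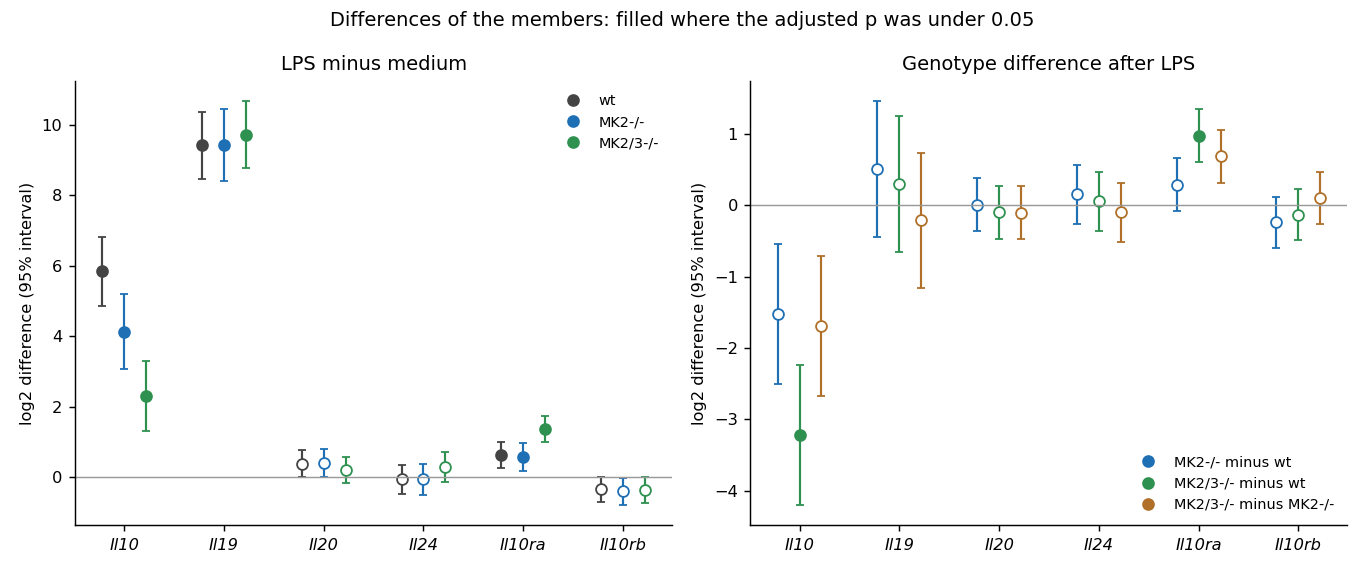
Log2 difference (y axis) of each member (x axis) with its 95% interval, for LPS minus medium in each genotype (left) and between genotypes after LPS (right); filled points had an adjusted p under 0.05. In the right panel only *Il10* and *Il10ra* have a filled point, for MK2/3-/- minus wt BMDM, at -3.22 and 0.98.

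Of the 6 members, *Il10*, *Il19* and *Il10ra* thus rose past the adjustment after LPS in every genotype, and none fell past it. The calls of *Il10ra* in wt and MK2-/- BMDM were lost in the fits named above. *Il10rb*, which did not pass, was lower after LPS within every culture. Among all genes 8.26% rose and 8.89% fell in wt, 8.48% and 10.1% in MK2-/- and 11.9% and 12.9% in MK2/3-/- BMDM. The median LPS difference of the members was 0.51, 0.49 and 0.83, compared with 0.01, -0.01 and -0.02 over all genes. Between MK2/3-/- and wt BMDM after LPS, 1 member was higher and 1 lower, and none passed the adjustment in the other genotype comparisons after LPS or in those in medium, where 0.00769% of all genes passed for MK2-/- against wt BMDM, 0.0769% for MK2/3-/- against wt BMDM and 0.0461% for the pair of knockouts. Among the genotype comparisons, leaving out an array changed the call of a member only for *Il10* between the knockouts after LPS, as given above.

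The genes on either side of *Mapkapk2* were described to place *Il10* and *Il19* in their surroundings. The reference table lists 30 genes that start within 500 kb of *Mapkapk2*, of which 18 were measured: *Mapkapk2*, the 4 cytokines and 13 others. Of these 13, *Ikbke*, encoding a kinase that activates interferon regulatory factors, rose by 2.48, 2.40 and 2.52 on the log2 scale after LPS in wt, MK2-/- and MK2/3-/- BMDM, and *Fam72a* rose by 1.53, 1.77 and 1.97. *Pfkfb2*, encoding a regulator of glycolysis, fell, with differences of -2.03, -2.30 and -1.97, and *Rassf5* and *AA986860* fell as well in all genotypes. *Fcmr* rose and *Yod1* fell past the adjustment in MK2/3-/- BMDM, the former without being well above background on all arrays of any group. With *Mapkapk2*, 3 of 14 genes rose and 3 fell in wt and in MK2-/- BMDM, while 4 rose and 4 fell in MK2/3-/- BMDM. Of all genes, 8.26% rose and 8.89% fell in wt, 8.48% and 10.1% in MK2-/- and 11.9% and 12.9% in MK2/3-/- BMDM. The measured genes nearest to *Mapkapk2* on the side away from *Il10*, *Dyrk3* and *Eif2d*, did not pass the adjustment in any LPS comparison, with differences of 0.28, 0.12 and -0.81 for *Dyrk3* and -0.16, -0.02 and -0.04 for *Eif2d*.

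Between the genotypes, 1 of the 13 genes passed the adjustment. *Yod1*, encoding a deubiquitinating enzyme, was 1.14 ± 0.21 lower (SE) in MK2/3-/- than in wt BMDM after LPS, with mean log2 signals of 5.97 and 7.11 and no overlap of the arrays (adjusted p = 0.00898 by limma, exact permutation p = 0.0286). Among all genes 1.64% passed in this comparison and the arrays of 5.8% did not overlap. With only these 2 groups in the fit or by the methods' t-test the call was lost. In MK2-/- BMDM the mean was 6.54 and the difference of -0.57 from wt BMDM did not pass (adjusted p = 0.567 by limma). The medians over the list of these 13 genes and *Mapkapk2* were 0.06 for MK2/3-/- against wt BMDM and -0.03 for MK2-/- against wt BMDM after LPS, compared with 0.01 over all genes in both.

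**Figure D4:**
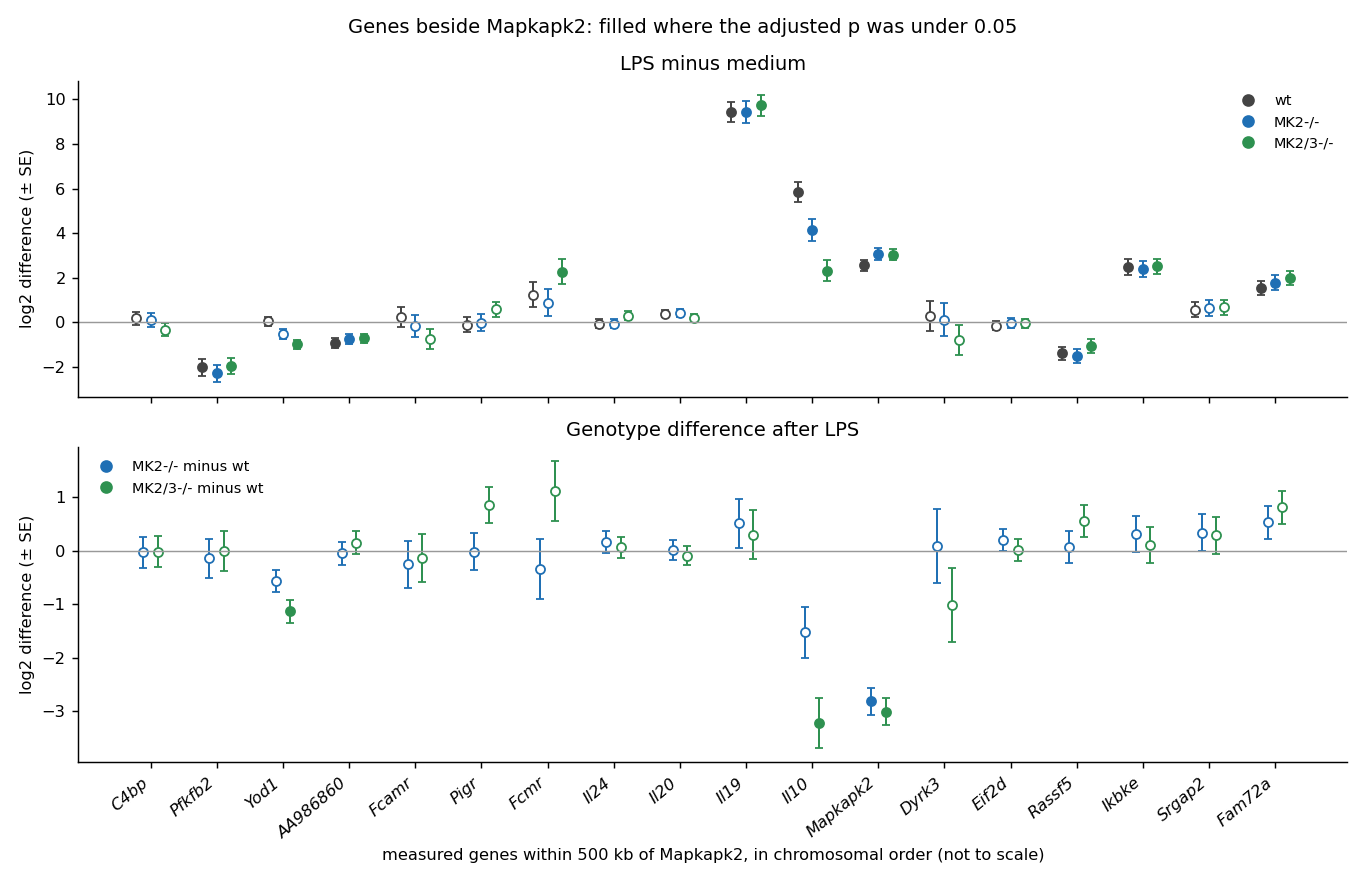
Log2 difference with its standard error (y axis) for the 18 measured genes within 500 kb of *Mapkapk2*, in chromosomal order and not to scale (x axis), for LPS minus medium in each genotype (top) and for each knockout minus wt BMDM after LPS (bottom); filled points had an adjusted p under 0.05. In the bottom panel *Il10*, at -3.22, and *Yod1*, at -1.14, are the only filled points besides *Mapkapk2*.

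To describe which genes shared the pattern of *Il10*, its log2 signals over the 23 arrays were correlated with those of 15775 genes that were well above background on all arrays of at least 1 group. The genes most alike were *Amz2* (Pearson r = 0.935), *Adora2b* (0.928), *Slc16a10* (0.928), *Il23a* (0.925) and *C9orf72* (0.923). *Adora2b*, which encodes an adenosine receptor, had mean log2 signals of 13.04, 12.33 and 11.27 after LPS in wt, MK2-/- and MK2/3-/- BMDM and thus the same order as *Il10*, and *Amz2* had 11.37, 11.20 and 10.95. *Il23a*, encoding the specific subunit of IL-23, had 8.57, 8.64 and 6.78. Once the group means were removed, the correlation with *Il10* ranged from -0.11 for *Adora2b* to 0.54 for *Amz2*, so that for *Adora2b* the likeness lay in the group means. The genes most like *Il19* were *Tnfaip3* (0.995), an inhibitor of NF-kappa B signaling, *Rab11fip1* (0.994), the costimulatory receptor gene *Cd40* (0.993), *Socs3* (0.993) and *Exoc3l4* (0.993), and their correlations with the group means removed were 0.54 to 0.77. Between *Il10* and *Il19* r was 0.870 over the arrays and 0.248 with the group means removed. All these values share the same arrays and the common LPS response and are given as descriptions.

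Of the remaining cytokines of the family, 3 of 4 listed were measured, and *Il22* was the only one called, with a rise of 0.87 in MK2/3-/- BMDM (adjusted p = 0.0118 by limma) that did not pass with arrays scaled to their 75th percentile (0.75, adjusted p = 0.0873). Among all genes 11.9% rose in MK2/3-/- BMDM. *Il22* was well above background on every array in only 3 of the 6 groups. In MK2/3-/- BMDM its mean log2 signals were 4.47 in medium and 5.34 after LPS. In wt BMDM its difference of 0.63 (adjusted p = 0.0931 by limma) passed without MK2-/- medium replicate 2 (adjusted p = 0.0369). *Iltifb* is a near-identical copy of *Il22*, so that the probes may not tell the transcripts apart. Among 5 other receptor chains, *Il20rb*, whose product pairs with further chains to bind IL-19, IL-20 and IL-24, rose by 1.21, 1.63 and 2.01 in wt, MK2-/- and MK2/3-/- BMDM (adjusted p = 0.00435, 0.000575 and 1.96e-05 by limma), with no difference between the genotypes after LPS past the adjustment. The other 4, *Il20ra*, *Il22ra1*, *Il22ra2* and *Ifnlr1*, were in no group well above background on all arrays.

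In the signaling pathway of the IL-10 receptor, represented by 6 genes, 2 rose in wt BMDM, 2 in MK2-/- BMDM and 4 in MK2/3-/- BMDM and none fell. Among all genes 8.26%, 8.48% and 11.9% rose in these genotypes. The inhibitors *Socs1* and *Socs3* were induced in every genotype, *Socs1* by 7.48, 7.11 and 8.38 and *Socs3* by 7.85, 7.28 and 7.72 on the log2 scale. The transcription factor gene *Stat3* passed the adjustment in MK2/3-/- BMDM, with a rise of 1.42 (adjusted p = 0.00674 by limma). In wt BMDM its difference was 0.87 (adjusted p = 0.126), and no gene of the pathway passed in an interaction or in a genotype comparison. For MK2/3-/- against wt BMDM after LPS the list had a median of 0.43, compared with 0.01 over all genes.

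Of 10 genes that IL-10 is known to raise in macrophages, 7 rose in wt BMDM, 6 in MK2-/- BMDM and 7 in MK2/3-/- BMDM, and 1 fell in the latter, *Hmox1*, encoding heme oxygenase 1 (-1.31, adjusted p = 0.0362 by limma). Of all genes, 8.26%, 8.48% and 11.9% rose in these genotypes, and 12.9% fell in MK2/3-/- BMDM. *Il1rn*, encoding the antagonist of the IL-1 receptor, rose by 4.93, 5.21 and 4.83, and *Bcl3*, encoding an inhibitor of NF-kappa B of the atypical kind, by 2.56, 2.59 and 2.79. After LPS, 1.64% of all genes passed between MK2/3-/- and wt BMDM. Of the 10, 1 passed as higher in MK2/3-/- BMDM and none as lower. This was *Nfil3*, encoding a basic leucine zipper transcription factor, with mean log2 signals of 14.90 and 13.54 and a difference of 1.36 ± 0.32 (SE, adjusted p = 0.0352 by limma), though the arrays overlapped (exact permutation p = 0.0571) and the call was lost with only the groups compared in the fit, by the methods' t-test and in 5 of the fits that left out an array. The median over the list was 0.08 in this comparison and -0.16 between MK2-/- and wt BMDM.

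Among 13 regulators of *Il10* transcription, 7 rose and 1 fell after LPS in wt, 6 and 1 in MK2-/- and 7 and 1 in MK2/3-/- BMDM. The shares of all genes that rose and fell were 8.26% and 8.89%, 8.48% and 10.1%, and 11.9% and 12.9%. *Creb1* rose by 1.49, 1.64 and 1.86 and *Nfkb1*, encoding the p105 and p50 proteins of NF-kappa B, by 2.25, 2.28 and 2.24, while *Fos*, a component of AP-1, fell (-3.14, -3.63 and -3.04). *Maf*, encoding a factor that binds the *Il10* promoter, had differences of -0.36, -0.50 and -0.23 that did not pass. In the comparison of MK2/3-/- with wt BMDM after LPS, only *Nfil3*, which belongs to this list too, passed. *Ifnb1*, encoding interferon β, had mean log2 signals after LPS of 14.87 in wt BMDM, 13.15 in MK2-/- BMDM and 13.69 in MK2/3-/- BMDM, and its differences of -1.72 and -1.18 from wt BMDM did not pass (adjusted p = 0.334 and 0.24 by limma); without MK2-/- LPS replicate 4 the former was -2.25 (adjusted p = 0.0289).

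Of 6 genes for proteins that bind AU-rich elements, *Zfp36* rose after LPS by 2.27 in wt BMDM, 1.86 in MK2-/- BMDM and 2.27 in MK2/3-/- BMDM, and *Zfp36l2* fell, with differences of -4.92, -6.30 and -5.64. None passed the adjustment between genotypes. The differences nearest to it were those of *Zfp36l1*, with -2.52 for MK2-/- and -1.87 for MK2/3-/- against wt BMDM after LPS (adjusted p = 0.115 and 0.0629 by limma), and of *Elavl1*, which encodes the stabilizing protein HuR, with -1.41 for MK2/3-/- against wt BMDM (adjusted p = 0.0673). Over this list the median difference between MK2/3-/- and wt BMDM was -0.32.

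**Figure D5:**
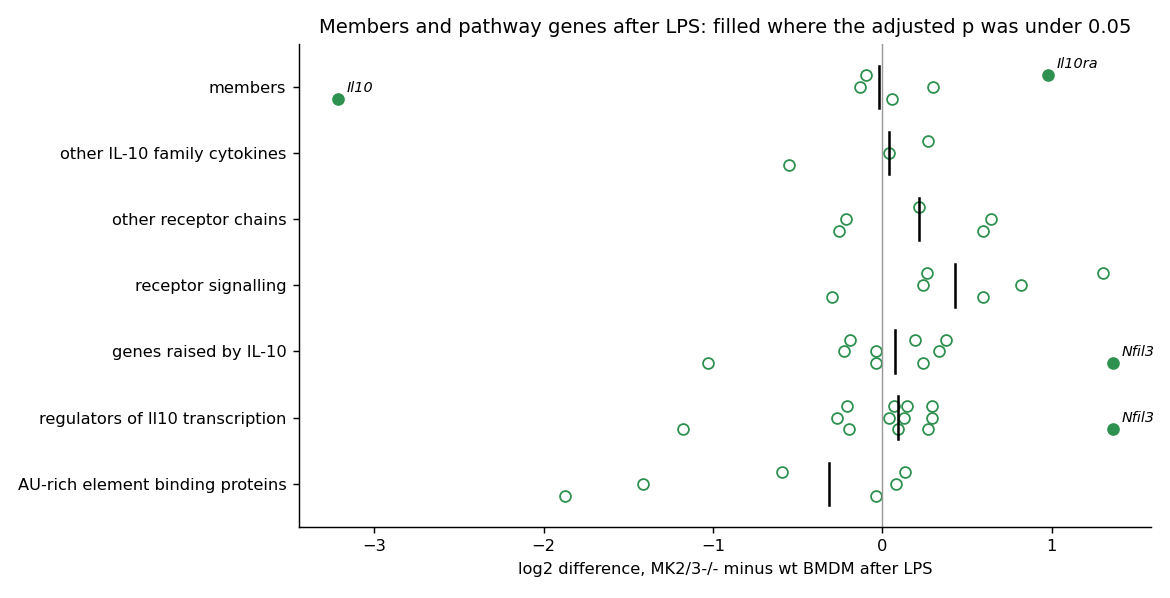
Log2 difference of LPS-treated MK2/3-/- minus LPS-treated wt BMDM (x axis) for each measured gene (points) of the 6 members and of the 6 pathway lists (y axis); filled points had an adjusted p under 0.05, vertical bars are list medians, and *Nfil3* belongs to 2 lists. *Il10* lies at -3.22, farther from 0 than any other point, and *Il10ra* and *Nfil3* are the only others that are filled.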

How the data were processed

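Total RNA of 23 BMDM samples was labeled with Cy3 and hybridized to Agilent SurePrint G3 mouse arrays. The spot intensities deposited by the authors come from Agilent Feature Extraction 11.0.1.1, with the background subtracted and no normalization between arrays, per the file headers. The authors also deposited log2 values after quantile normalization, from which the median of every probe had been subtracted. These agreed closely with the spot intensities treated in the same way (Pearson r = 0.999942) and served as an alternative. Normexp background correction, run here as an alternative, used the deposited median intensities of the spots and of their background. Columns of group means were not used.

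Of 62976 spots per array, controls and spots that the software marked as uneven or outlying were removed, which left 258 of 1280663 probe values missing. No spot was saturated. Intensities were log2 transformed, the mean was taken over replicate spots, and quantile normalization was applied across arrays with limma 3.58.1 in R 4.3.3. Of 32885 probes with an NCBI accession, 29150 had a RefSeq accession, and 27509 of these were named through the RefSeq table. Each of the 26014 genes was represented by the probe that LPS raised most in wt BMDM. Of these, 20887 were named through the table, and each remaining accession without a name there was counted as a gene. Signals called well above background follow the mark of the scanner software. For *Il19* in medium, each signal under the lowest detected signal of its array was raised to that level, and the fold change against it is a lower bound. The number of arrays limits the precision. The authors describe 4 independent experiments, and the MK2-/- cultures came from mice aged 10, 11, 12 and 13 weeks. Ages repeat among the wt cultures (12 and 13 weeks) and the MK2/3-/- cultures (11, 12 and 14 weeks). There the labels do not say whether cultures of the same age came from separate mice. The p-values measure the spread between these samples.

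One linear model of 6 groups (lmFit and eBayes of limma) was fitted to all arrays, p-values were adjusted over all genes by Benjamini and Hochberg at 0.05, and exact permutation tests were added for single genes. For LPS against medium, both the model and the permutation tests took the arrays as unpaired. All tests are two-sided. Single genes are named by rule: the members, the targeted genes, the 5 genes most like *Il10* and *Il19*, and from the pathway lists genes that passed in a genotype comparison and up to 4 examples. Some genes of the lists are counted but not reported singly here. Members and lists were chosen with earlier results of these data known. Cultures were identified by the letters that the series' design text and the array names share. By these letters MK2-/- medium replicate 3 belongs to the culture of MK2-/- LPS replicate 4, and the culture of LPS replicate 3 has no medium array. After removal of group means, the 11 pairs of medium and LPS arrays of a culture correlated with r between 0.0657 and 0.566 (10 of them above 0.1), and between 0.359 and 0.776 for the 12569 genes detected on each array. The calls of the linear model were tested on simulated arrays without shared cultures, for MK2/3-/- against wt BMDM after LPS only. Alternatives covered scaling, background correction, a floor of 5, dim probes, outlier spots, the choice of probe, the samples in the fit, the methods' t-test, a variance trend, blocks and leaving out each array. Responses within cultures were added after the data were seen. Figures were drawn with matplotlib 3.10.9 in Python 3.11.15.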

Additional observations from a re-analysis of the deposited data

Results flagged for a closer look

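Of 35 groups of 4 arrays tested for a single array far from the others, 2 had a gap beyond the critical value of Dixon's test, where chance gives about 1 in 20. For *Il20*, MK2-/- LPS replicate 4 had a log2 signal of 2.78, while the other 3 arrays lay between 1.88 and 1.96, all of them not well above background. For *Il10rb*, wt LPS replicate 1 had a log2 signal of 12.47, while the other 3 arrays lay between 12.96 and 12.99.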

How the results depend on the processing

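Over the 6 members, 932 of 954 differences under other processing or another model and 1635 of 1656 with an array left out kept their side of the threshold, and no called difference reversed (39 and 66 uncalled ones changed sign). With only the groups compared in the fit, or by the methods' t-test with log2 or with linear values, 0 members instead of 2 were called between MK2/3-/- and wt BMDM after LPS, with adjusted p of 0.114, 0.175 and 0.18 for *Il10* and 0.205, 0.287 and 0.256 for *Il10ra*. On linear values that test called 1 member for LPS in wt and 0 in MK2-/- BMDM, each instead of 3, and in MK2/3-/- BMDM *Il10* and *Il19* were lost (adjusted p = 0.0921 and 0.0664). *Il20*, at background, was called there by either form of it (adjusted p = 0.0387 and 0.0477). *Il10ra* lost its LPS call in wt and MK2-/- BMDM with only the groups compared (adjusted p = 0.135 and 0.0605) and by that test on log2 values (0.169 and 0.0669) or linear values (0.186 and 0.0887). The targeted genes are not among these counts. *Mapkapk2* lost its call between MK2-/- and wt BMDM after LPS with only the groups compared (adjusted p = 0.0738) and by both forms of the t-test (0.137 and 0.769). The interaction of *Il10* between MK2/3-/- and wt BMDM passed, so that 1 member instead of 0 was called, with normexp on median signals (adjusted p = 0.0489), with the culture as a replicate block (0.0224) and with the replicate number as a block (0.0329). The number block sets MK2-/- medium replicate 3 beside the other arrays numbered 3, although by the letters its culture is that of MK2-/- LPS replicate 4. The blocks changed no other call of a member. Within cultures, the exact tests, unadjusted, gave p = 0.0286 for differences of -1.69, -3.54 and -1.84 in *Il10* and of 0.73 and 0.69 in *Il10ra*. Leaving out 1 array at a time, 0 to 1 members were called between MK2/3-/- and MK2-/- BMDM after LPS, and 0 to 1 in the interaction of MK2/3-/- and wt BMDM, in which *Il10* passed without MK2-/- LPS replicate 1 (adjusted p = 0.0121) or MK2/3-/- LPS replicate 4 (0.0494). Over all genes, the number block moved the calls after LPS from 427 to 753 for MK2/3-/- against wt, from 8 to 20 for MK2-/- against wt and from 42 to 99 for MK2/3-/- against MK2-/- BMDM. The interaction of MK2/3-/- and wt BMDM rose from 3 to 12 calls with the culture block and to 5 with the number block or the filter on dim probes, and that of MK2-/- and wt BMDM fell from 1 to 0 with the filter. The causes were not tested. *Il20* and the medium levels of *Il19* lay at background, which limits what can be said of them.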
